A study of Mus musculus with 16 samples.

Results

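Messenger RNAs of 10 inflammatory and regulatory cytokines were followed in sorted brain microglia of EAE mice, with PBS-treated mice as controls. The members are Tnf, Il1a, Il1b, Il1rn, Il6, Il12b, Il23a, Tgfb1, Csf1 and Il34, chosen by gene symbol, and all 10 were found among the 21878 mRNAs of the deposited tables. Experimental autoimmune encephalomyelitis (EAE) is a mouse model of multiple sclerosis in which an immune response against myelin is induced. Female wild-type C57BL/6 mice, 8 weeks old, were immunized with a peptide of myelin oligodendrocyte glycoprotein (MOG) in complete Freund's adjuvant and received 200 ng of pertussis toxin on days 0, 2 and 7. The protocol gives MOG residues 35–55, while in the treatment labels the end of the peptide moves from residue 55 for the mouse EAE 1 up to 62 for EAE 8. Controls were injected with PBS on the same schedule. Brains were taken on day 14 at a clinical score of 3–4, and CD11b+/CD45int cells were sorted. Each of the 8 EAE mice and 8 PBS-treated mice gave 1 ribosome-depleted, stranded RNA-seq library, named by group and number.

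Cytokines are secreted proteins through which immune and brain cells signal to each other. Microglia, the resident macrophages of the brain, make TNF, IL-1 and IL-6 when activated through pattern recognition receptors and NF-κB, and in EAE these cytokines and the IL-12 family act on infiltrating T cells, astrocytes and the vessel wall. TGF-β1 keeps microglia in their resting state, and CSF-1 and IL-34 are the ligands of CSF1R, the receptor on which microglia depend for survival. Il34 is made mainly by neurons in the adult brain.

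Most of these genes are under the control of inducible transcription factors. RefSeq start sites on GRCm38.p6 were at hand for 8 members, and Il12b, Il1rn, Tnf, Il1a, Il1b, Il6, Tgfb1 and Csf1 were searched for the NF-κB consensus, the AP-1 motif TGANTCA and the C/EBP motif TTNNGNAA on both strands, and for TATAAA on the gene's strand, in the 250 bases before the start. Of 32851 such windows in the genome, 7.25% held the NF-κB consensus, 6.75% the AP-1 motif, 36.8% the C/EBP motif and 7.59% TATAAA. The 150 bases before the start are printed 5′ to 3′ for Tnf, Il6, Il1b and Il1rn, since Tnf and Il6, and likewise Il1b and Il1rn, varied together over the libraries, and Il1rn has more than 1 start. Capitals mark the motif matches.
Tnf (chr17:35202008-35202157, minus strand): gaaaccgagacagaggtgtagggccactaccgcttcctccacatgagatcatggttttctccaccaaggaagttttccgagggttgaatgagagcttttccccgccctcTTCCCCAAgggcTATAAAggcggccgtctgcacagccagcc
Il6 (chr5:30012964-30013113, plus strand): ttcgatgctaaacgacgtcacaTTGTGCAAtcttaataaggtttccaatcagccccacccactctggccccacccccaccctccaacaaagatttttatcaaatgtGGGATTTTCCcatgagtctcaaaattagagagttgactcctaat
Il1b (chr2:129371140-129371289, minus strand): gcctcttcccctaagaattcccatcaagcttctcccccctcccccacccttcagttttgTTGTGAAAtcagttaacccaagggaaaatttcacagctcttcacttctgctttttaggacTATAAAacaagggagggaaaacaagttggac
Il1rn, first start (chr2:24336710-24336859, plus strand): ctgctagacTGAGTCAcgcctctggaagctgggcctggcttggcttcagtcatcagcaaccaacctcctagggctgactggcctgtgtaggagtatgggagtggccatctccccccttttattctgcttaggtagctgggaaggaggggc
Il1rn, second start (chr2:24345141-24345290, plus strand): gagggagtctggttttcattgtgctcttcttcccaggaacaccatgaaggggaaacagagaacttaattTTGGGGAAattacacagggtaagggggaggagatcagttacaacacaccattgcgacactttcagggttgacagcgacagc
Tnf and Il1b share a TATAAA near the start, at positions −29 to −24 and −31 to −26, each after a C/EBP match. The first letter upstream of the start is position −1. Il6 held the NF-κB consensus at −44 to −35 and a C/EBP match at −128 to −121, and a further AP-1 match at −249 to −243 lies outside the printed stretch. The first start of Il1rn, the IL-1 receptor antagonist, had an AP-1 match at −141 to −135, and the second start had a C/EBP match at −81 to −74. A start 3 of Il1rn (position 24345371, not printed) had C/EBP matches at −161 to −154, −65 to −58 and −64 to −57. Csf1 and Tgfb1 held the NF-κB consensus at −154 to −145 and at −140 to −131, Il1a held AP-1, C/EBP and TATAAA, and none of the 4 was in the Il12b window. Tnf had a further C/EBP match at −181 to −174, the Tgfb1 match was read on both strands, and no matches to different motifs overlapped. A match describes the letters and was not tested for binding.

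Total counts were 24587443–30244215 per EAE library and 26031889–34184576 per PBS library. A count of 0 allows up to 3 counts, or 0.0992–0.122 CPM in an EAE library and 0.0878–0.115 CPM in a PBS library (counting error only). Microglia markers summed to 83.4–128 FPKM in EAE mice and 70.3–117 in controls, while neuron markers summed to 792–972 and 933–1034, and the astrocyte and oligodendrocyte lists were also above the microglia list in each library, which goes against a sample of microglia alone. Of all tested mRNAs, 0.66% were called higher in EAE mice (adjusted p under 0.05 in the edgeR test given below) and 2.42% in either direction. Of 10 microglia markers, Trem2 and Itgam were called higher in EAE mice, while Sall1 and Aif1 had a negative log2FC. Of 7 neuron markers, Gad1 and Syt1 were called lower (log2FC −0.53 and −0.28), and no astrocyte or oligodendrocyte marker was called. Of 11 neutrophil markers, 4 were called higher in EAE mice, none was at 0 in all libraries, and their summed FPKM was 23.3–64.5 against 9.58–24.4. The 4 libraries with the highest neutrophil sums, EAE 3, 6, 7 and 8 at 58.7–64.5 FPKM, also had the 4 highest values of Il1b (5.64–6.61 FPKM) and Il1rn (1.26–2.87 FPKM) of all 16, and EAE 4 and 5, at 23.3 and 32.9, were low in Il1b (1.15 and 0.887 FPKM). The sum was 27.7 in EAE 2, which had the highest Tnf, Il1a and Il6, and 51.6 in EAE 1, which had the lowest Il1b. Monocyte and macrophage markers summed to 6.54–10.3 FPKM in EAE mice and 3.27–8.15 in controls, and T cell markers to 2.07–3.62 and 1.92–2.92, with none of these 8 and 7 markers called. The part of these cells in the values below was not tested, and in bulk samples fewer cells of a type and less RNA per cell cannot be told apart. Some libraries of each group were closer to each other than the rest. EAE 6, 7 and 8, and PBS 5, 7 and 8, were the most alike within their groups over mRNAs with at least 1600 counts, with a squared difference of 3.07–4.09 times Poisson noise against 6.29–26.4 for the other pairs within a group. Between the groups, EAE 4 and PBS 4 were the closest pair at 5.47, while EAE 4 was at 13.8 or more from every other EAE library. What this likeness comes from was not tested. No label names a batch, and between these EAE and PBS triplets the ratio was 6.90–12.9, within the 5.47–29.2 of the other pairs between the groups, so these values do not show that the 2 triplets belong together. The 6 libraries most alike and the other 10 were nevertheless compared as 2 sets, as a possible batch chosen after the data were seen, and the values of the members are also given within them.

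Ordered by level per length in controls, Il34 was highest at 12.7 ± 1.29 FPKM (mean ± SD, n = 8), followed by Csf1 at 8.64 ± 1.25, Tgfb1 at 3.59 ± 1.05, Il1b at 2.39 ± 1.25 and Il1a at 1.21 ± 0.651 FPKM. These were followed by Tnf at 0.750 ± 0.482, Il6 at 0.546 ± 0.580, Il1rn at 0.236 ± 0.316, Il23a at 0.0723 ± 0.0744 and Il12b at 0.00153 ± 0.00432 FPKM. The 5 pairs of neighbours from Il34 to Tnf differed by more than 1 SD of the difference within a library, and the order from Tnf downward did not. The CSF1R ligands and Tgfb1 were thus the most abundant, and the pro-inflammatory cytokines were low and uneven. In EAE mice the order of the means was the same, but Tgfb1, Il1b and Il1a no longer differed by more than 1 SD, with Tgfb1 above Il1b in 4 of 8 libraries.

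**Figure D1:**
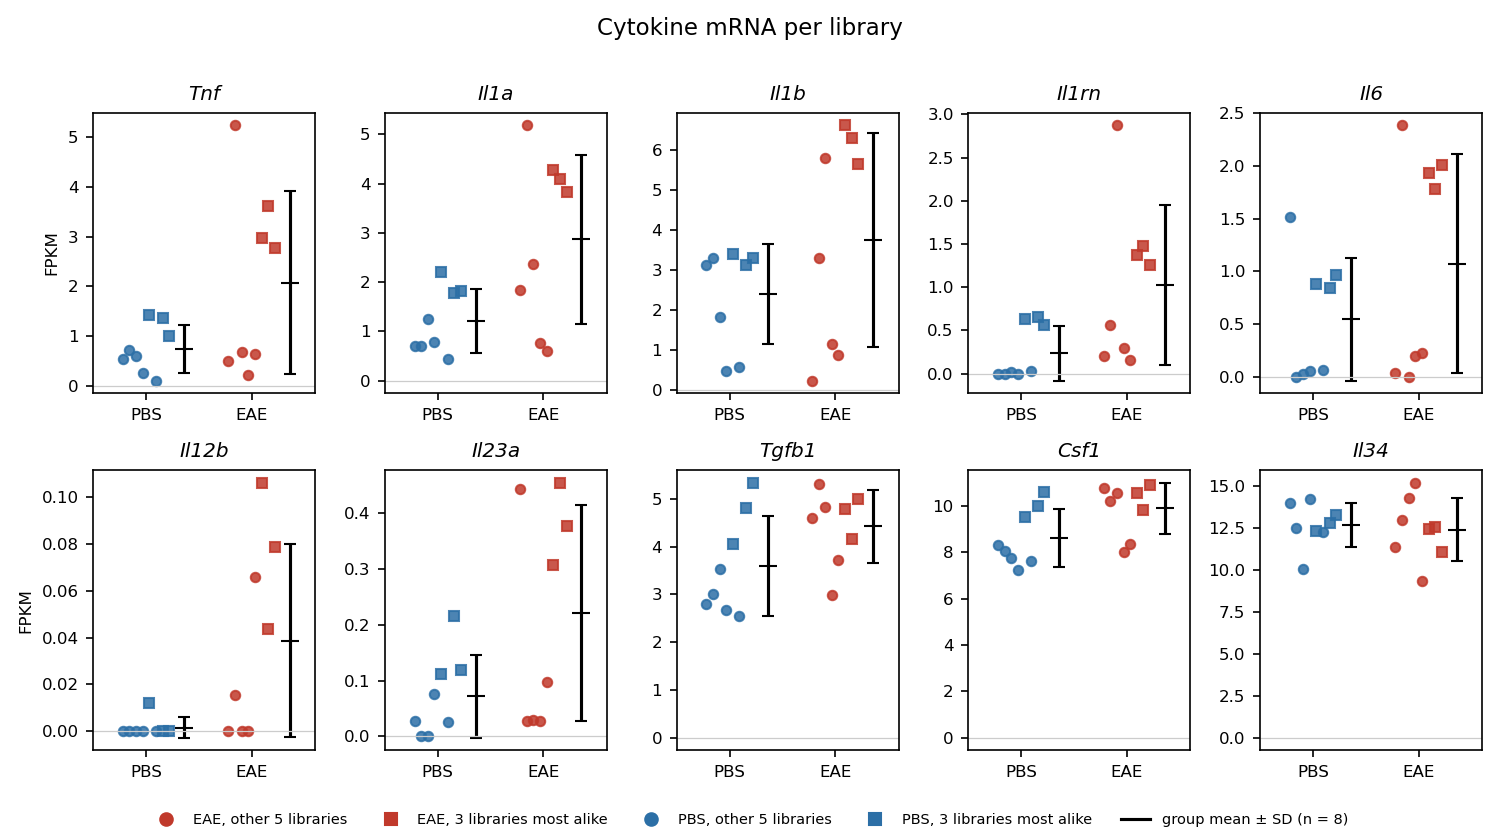
FPKM of each cytokine in each library, with a separate linear axis per gene, PBS in blue and EAE in red, squares for the 3 libraries per group that were most alike and circles for the other 5. Bars at the right of each group give the mean ± SD (n = 8), and Tnf, Il1a, Il1b, Il1rn and Il6 span a wide range within each group while Csf1 and Il34 do not.

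Levels were compared between both groups by applying edgeR's quasi-likelihood test to the counts of 17885 mRNAs, each with 16 or more counts over all libraries, a minimum that all 10 members reached. Il12b reached it only through the EAE libraries, with 21 counts against 1 in the PBS libraries. Its place in the numbers of members below is thus partly set by this minimum. No cytokine passed an adjusted p of 0.05, a threshold that 433 mRNAs (2.42%) passed, 118 of them higher (0.66% of all) and 315 lower in EAE mice (226 and 103 when scaled by library totals alone), and in this fit no member had both an adjusted p under 0.05 and a |log2FC| over 1 (21 mRNAs, 0.117%). At an unadjusted p under 0.05, 5 of 10 members were higher in EAE mice, namely Tnf, Il1a, Il1rn, Il12b and Il23a, against 17.4% of all tested mRNAs in either direction and 7.92% in this direction. The log2FC was positive for 9 of 10 members (52.7% of all mRNAs) and over 1 for 5 (2.08%). The median log2FC was 1.06 over the members and 0.01 over all tested mRNAs. Tnf, Il1a, Il1b, Il1rn and Il6 varied more between EAE libraries, relative to their mean, than 99.4–99.8% of mRNAs with like counts. Il12b and Il23a had 22 and 89 counts in all. A large log2FC comes more easily to such genes, and members that vary together are not separate observations. An exact permutation test on FPKM (two-sided, all divisions of the 16 libraries into 8 and 8) gave an unadjusted p under 0.05 for Il1a, Il1rn, Il12b and Csf1, a threshold that 18.4% of all mRNAs passed, and no mRNA passed it after adjustment. For none of the 10 members were all EAE libraries above all PBS libraries, which held for 29 mRNAs (0.162%).

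Tnf encodes the founding member of the tumour necrosis factor family and lies on chromosome 17 (35199367–35202007, minus strand, GRCm38.p6, as for all positions given here). Its lowest, median and highest FPKM were 0.210, 1.73 and 5.24 in EAE mice and 0.109, 0.658 and 1.43 in controls. EAE 2, 6, 7 and 8 were above every PBS library, and the other 4 EAE libraries lay within the PBS range. The log2FC of Tnf was 1.40 (SE 0.53), with an unadjusted p of 0.0155 and an adjusted p of 0.169 in edgeR's quasi-likelihood test. Among the 6 libraries most alike, counts of 116–164 in EAE mice stood against 51–77 in controls. In the other 10, EAE 2 had 226 counts and the other 4 EAE libraries 9–32, against 5–39 in the PBS libraries, so that EAE 2 alone stood outside the PBS counts, and the log2FC was 1.62 (SE 0.71, adjusted p = 0.421 in edgeR).

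The IL-1 family was measured through its agonists and their antagonist. Il1a and Il1b encode the agonists IL-1α and IL-1β and lie close together on the minus strand of chromosome 2 (129299609–129310186 and 129364569–129371164), and Il1rn encodes the antagonist that blocks their receptor (chromosome 2, 24336860–24351491, plus strand). Il1a had a lowest, median and highest FPKM of 0.599, 3.10 and 5.18 in EAE mice and 0.439, 1.02 and 2.20 in controls. EAE 2, 3, 6, 7 and 8 were above each PBS library, and EAE 4 and 5 were within the lower part of the PBS range. The log2FC of Il1a was 1.19 (SE 0.39), with an adjusted p of 0.103 in edgeR's quasi-likelihood test and an unadjusted p of 0.0255 in the exact permutation test (0.207 adjusted over all mRNAs). Without EAE 4 or without EAE 5, the adjusted p of Il1a in the same edgeR test was 0.0263 and 0.0291. The unadjusted p in edgeR was 0.00124 and 0.000831, against 0.00540 with all libraries. These fits also called more mRNAs, 502 higher and 815 lower without EAE 4 and 292 and 609 without EAE 5. Whether Il1a is called thus changes with these single libraries, through its own p and through the other mRNAs.

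Il1b was more even between the groups. Its FPKM ran from 0.242 over a median of 4.47 to 6.61 in EAE mice, and from 0.486 over 3.13 to 3.40 in controls. The libraries EAE 3, 6, 7 and 8 exceeded the PBS libraries, and EAE 1 was below all of them. The log2FC of Il1b was 0.59 (SE 0.49), with an adjusted p of 0.572 in edgeR's test. The mRNA of the agonist thus ranged over more than the difference between the groups in both of them. Il1a overlaps Gm14023 and Il1b overlaps Il1bos on the opposite strand. The strand setting of the counting was not given in the sources used here. Reads from the shared stretches may thus have been counted with the wrong gene or left out.

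Il1rn, the antagonist, separated the PBS libraries into those with 0 to 2 counts and those with 49 to 63. Its counts were 0, 0, 1, 0 and 2 in PBS 1, 2, 3, 4 and 6, and 58, 63 and 49 in PBS 5, 7 and 8. In EAE mice they were 15, 41, 199, 22 and 13 in EAE 1 to 5, and 102, 114 and 90 in EAE 6, 7 and 8. Every EAE library was thus above the 5 PBS libraries that were at or under the counting limit, and over all 16 libraries the groups overlapped, since PBS 5, 7 and 8 lay within the EAE range. In FPKM the mean was 1.02 ± 0.924 (SD, n = 8) in EAE mice and 0.236 ± 0.316 in controls, with a log2FC of 2.02 (SE 0.76) and an adjusted p of 0.164 in edgeR's quasi-likelihood test. The exact permutation test gave an unadjusted p of 0.0289 (0.218 adjusted), which was 0.05 or over without EAE 3 and without PBS 1, 2 or 4.

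**Figure D2:**
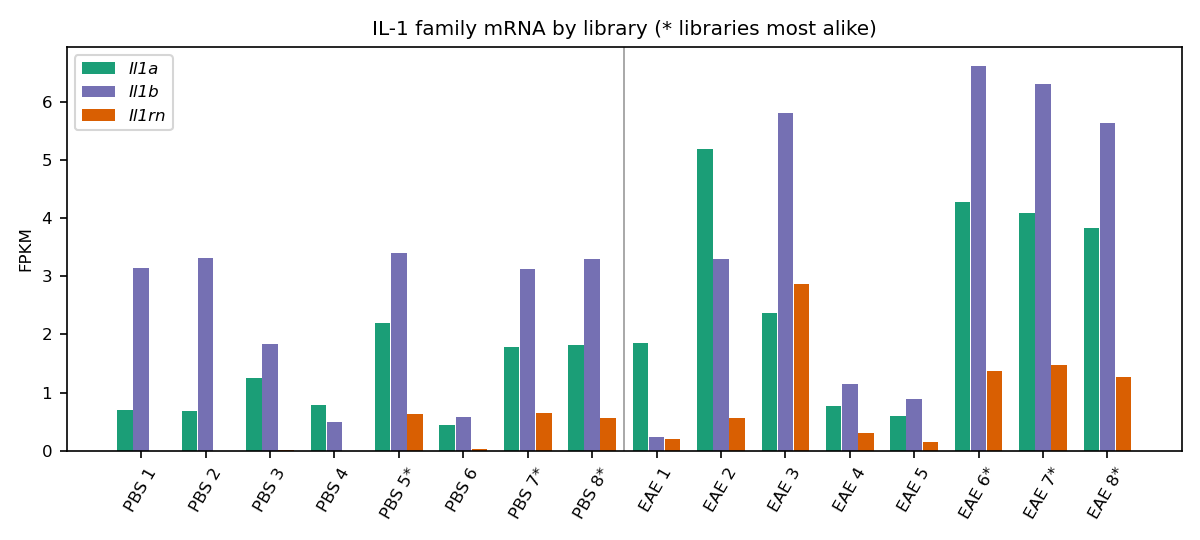
FPKM of Il1a, Il1b and Il1rn as bars in each of the 16 libraries, PBS at the left and EAE at the right, with asterisks on the libraries most alike. Il1rn is at or near 0 in PBS 1, 2, 3, 4 and 6 (at most 2 counts), where Il1b reaches up to 3.31 FPKM, and EAE 3 has the highest Il1rn at 2.87 FPKM.

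Within the sets the 3 IL-1 genes differed. In the 6 libraries most alike, the 3 were called higher in EAE mice, Il1rn at a log2FC of 1.12 (SE 0.22, adjusted p = 0.000565 in edgeR's test), Il1a at 1.05 (SE 0.10, adjusted p = 1.05e-07) and Il1b at 0.89 (SE 0.10, adjusted p = 5.79e-07), and in none of them did the groups overlap, where 24.1% of mRNAs were called in either direction, 11% were called higher and 21.5% were higher without overlap. These libraries were chosen for likeness over mRNAs that include Il1a and Il1b, so the small SE and p-values there are partly a product of that choice. In the other 10 libraries, Il1rn summed to 290 counts in EAE mice and 3 in controls, a CPM ratio of 104 with a counting interval of 35.1–505 (exact, 95%, counting error only). EAE 3 alone held 199 of the 290 counts, and without it the ratio was 39.8 (13.2–197). The adjusted p of Il1rn there was 0.0359 in edgeR's test, and its groups did not overlap, where 1.58% of tested mRNAs were higher without overlap. Each of these 10 libraries was left out in turn. The adjusted p of Il1rn in edgeR was then 0.0110 without EAE 5, 0.0128 without EAE 4 and 0.0545–0.115 without any of the other 8. These adjusted values also move with the other mRNAs. The unadjusted p in edgeR was 1.16e-05 without EAE 1, where 1 mRNA was called, and 1.47e-05 without EAE 4, where 303 were called. With all 10 it was 2.06e-05, and without 1 PBS library it was 5.23e-05–0.000121. The call is thus not stable when single libraries are left out. Il1a (log2FC 1.40, SE 0.46, adjusted p = 0.252) and Il1b (log2FC 0.20, SE 0.64, adjusted p = 0.958) did not pass in this edgeR fit. Il1rn was the 1 member without overlap in both sets, as were 77 of the tested mRNAs (0.431%). The difference between its log2FC in the 2 sets was −5.31 (most alike minus other, SE 1.31), with an unadjusted p of 0.000595 and an adjusted p of 0.193 for the edgeR interaction term over all mRNAs.

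Il6, a ligand of gp130 receptors that drives acute-phase and Th17 responses, lies on chromosome 5 (30013114–30019975, plus strand, overlapping A230098N10Rik). It had 0–71 counts in EAE libraries with a median of 32, and 0–45 in PBS libraries with a median of 17.5. Its counts were 71 in EAE 2 and 56–58 in EAE 6, 7 and 8, and 0–8 in the other EAE libraries, while PBS 1 had 45, PBS 5, 7 and 8 had 33–34 and the other PBS libraries had 0–2. The values of Il6 were thus high or near the counting limit in both groups, and the groups overlapped. Its log2FC was 0.93 (SE 0.79, adjusted p = 0.586 in edgeR's quasi-likelihood test). In the 6 libraries most alike, a set chosen for its small spread, the FPKM was 1.91 ± 0.113 (SD, n = 3) against 0.899 ± 0.0614 and the log2FC was 1.05 (SE 0.30, adjusted p = 0.0116 in edgeR's test), while in the other 10 it was 0.74 (SE 1.19, adjusted p = 0.905).

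Il12b and Il23a encode p40 and p19, the subunits that make up IL-23, the cytokine that sustains Th17 cells, and p40 is also a subunit of IL-12. Il12b (chromosome 11, 44400063–44414677, plus strand) had 21 counts over the 8 EAE libraries, with 5, 7, 3 and 5 in EAE 5 to 8, 1 in EAE 2 and 0 in the remaining 3. In PBS-treated mice it had 1 count in PBS 5 and 0 in the other 7. The ratio of the summed counts, scaled to depth, was 23.8, with a counting interval of 3.82–983. No PBS library was above the counting limit, and 3 or fewer counts were found in 5 of 8 EAE libraries. The unadjusted p of Il12b was 0.00234 and the adjusted p 0.0690 in edgeR's quasi-likelihood test, and the exact permutation test gave 0.0256 (0.207 adjusted). Since Il12b reached the minimum of 16 counts through its EAE counts alone, its p-values are given as values and not as support. Without EAE 4, which had no count, the adjusted p in edgeR was 0.0260 (unadjusted 0.00121), where 502 mRNAs were called higher and 815 lower. Without EAE 1 or EAE 3, also with no count, the unadjusted p in edgeR was 0.00117 and 0.00123. The adjusted p was then 0.0674 and 0.0642, and 49 and 60 mRNAs were called higher and 136 and 158 lower. The adjusted p of Il12b thus differed where its unadjusted p hardly did. Without EAE 6, Il12b fell under the minimum of 16 counts.

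Il23a (chromosome 10, 128296140–128298084, minus strand) had a lowest, median and highest count of 1, 7.5 and 17 in EAE mice and 0, 2 and 10 in controls. EAE 1, 6, 7 and 8 had 11–17 counts, above each PBS library, and the other 4 had 1–4. Its log2FC was 1.49 (SE 0.71), with an unadjusted p of 0.0472 and an adjusted p of 0.280 in edgeR's test, and its exact permutation p on FPKM was 0.0600. Its log2FC was 1.30 (SE 0.62, adjusted p = 0.137 in edgeR) in the 6 most alike and 2.08 (SE 1.08, adjusted p = 0.528) in the other 10. Low counts of Il12b and Il23a came from partly different libraries, since EAE 1 had 16 counts of Il23a and 0 of Il12b, and EAE 5 had 4 and 5.

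Tgfb1, which encodes the latent regulatory cytokine TGF-β1, lies on chromosome 7 (25687002–25705077, plus strand). Its lowest, median and highest FPKM were 2.99, 4.70 and 5.30 in EAE mice and 2.54, 3.27 and 5.34 in controls. The ranges overlapped almost in full, because PBS 5, 7 and 8, at 4.05–5.34 FPKM, were at the level of the EAE libraries. Its log2FC was 0.25 (SE 0.15, adjusted p = 0.430 in edgeR's quasi-likelihood test). In the other 10 libraries, PBS-treated mice had 2.54–3.53 FPKM and EAE mice 2.99–5.30, and the log2FC was 0.49 (SE 0.16, adjusted p = 0.260). It was −0.056 (SE 0.12, adjusted p = 0.782) in the 6 most alike, and the edgeR interaction term had an unadjusted p of 0.0287 and an adjusted p of 0.572.

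Csf1 and Il34 were the steadiest members. The FPKM of Csf1 (chromosome 3, 107741048–107760469, minus strand) ran from 8.04 over a median of 10.4 to 10.9 in EAE mice, and from 7.23 over 8.17 to 10.6 in controls. Of the EAE libraries, 7 were above the PBS median and 2 above each PBS library. Its log2FC was 0.15 (SE 0.08, adjusted p = 0.383 in edgeR's test), and the exact permutation test on FPKM gave an unadjusted p of 0.0486 (0.269 adjusted), which was 0.05 or over in 11 of 16 repeats that each left out 1 library. Within the sets its log2FC was 0.02 (SE 0.06, adjusted p = 0.823 in edgeR) in the 6 most alike and 0.23 (SE 0.09, unadjusted p = 0.0211, adjusted p = 0.354) in the other 10. Il34 (chromosome 8, 110741829–110805949, minus strand) ran from 9.35 over 12.5 to 15.2 FPKM in EAE mice and from 10.1 over 12.7 to 14.2 in controls. EAE 4 was the highest and EAE 5 the lowest of all 16 libraries, and the log2FC of Il34 was −0.08 with a 95% interval of −0.26 to 0.10 (adjusted p = 0.669 in edgeR's test). It was −0.12 (SE 0.07, adjusted p = 0.245 in edgeR) in the 6 most alike and −0.06 (SE 0.12, adjusted p = 0.926) in the other 10. Csf1 overlaps Gm40121, and Il34 overlaps Gm15894, Gm39250 and Gm15895. Of these, Gm15894 and Gm15895 lie on the strand opposite to Il34, so the limit given for Il1a and Il1b holds for Il34 too.

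Since both ligands bind CSF1R, their ratio within a library was compared. The log2 ratio of Il34 to Csf1 FPKM was 0.32 ± 0.28 (SD, n = 8) in EAE mice, from 0.02 to 0.92, and 0.56 ± 0.24 in controls, from 0.32 to 0.98. Il34 was the higher of both ligands in each library, and the groups overlapped. The difference of −0.24 (EAE minus PBS) had a two-sided p of 0.0880 in the exact permutation test. Without EAE 4, which had the highest ratio of its group, the difference was −0.33 with an exact p of 0.0104. Within the 6 libraries most alike it was −0.15 (exact p = 0.200, where 3 against 3 cannot go below 0.10), and within the other 10 it was −0.30 (exact p = 0.135).

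Over the members as a group, the set of libraries changed which ones passed. Within the 6 libraries most alike, Tnf, Il1a, Il1b, Il1rn, Il6 and Il12b were called higher in EAE mice, 6 of 10 members, where 24.1% of 17239 mRNAs were called in either direction and 11% higher. In this set Il12b had 15 counts in EAE mice and 1 in controls, so it reached the minimum of 16 through the EAE libraries. Its call and its lack of overlap in this set are therefore no support. Tnf had a log2FC of 1.27 there (SE 0.20, adjusted p = 6.32e-05 in edgeR's test). Il23a was the remaining one of the 7 members whose groups did not overlap, a pattern that 21.5% of mRNAs showed in this direction. Because these libraries were chosen for being alike, their spread is small by choice, and 3 mice per group enter that fit. Within the other 10 libraries, Il1rn was the 1 of 9 tested members called, where 13 of 17461 mRNAs (0.0745%) were called in either direction and 0.0458% were called higher. With a term for the set of libraries in the edgeR model for all 16, 3 members were called higher, namely Il1rn (log2FC 2.90, SE 0.69, adjusted p = 0.0205), Il1a (log2FC 1.26, SE 0.30, adjusted p = 0.0219) and Il12b (adjusted p = 0.0405), against 4.29% of all mRNAs in either direction and 1.35% higher. In that fit, the adjusted p of Tnf was 0.0720. The sets were chosen from these same counts, so the term takes out spread within the groups that the data themselves picked. It also joins an EAE and a PBS triplet that were not shown to belong together. These calls are therefore not those of a correction for a known batch.

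**Figure D3:**
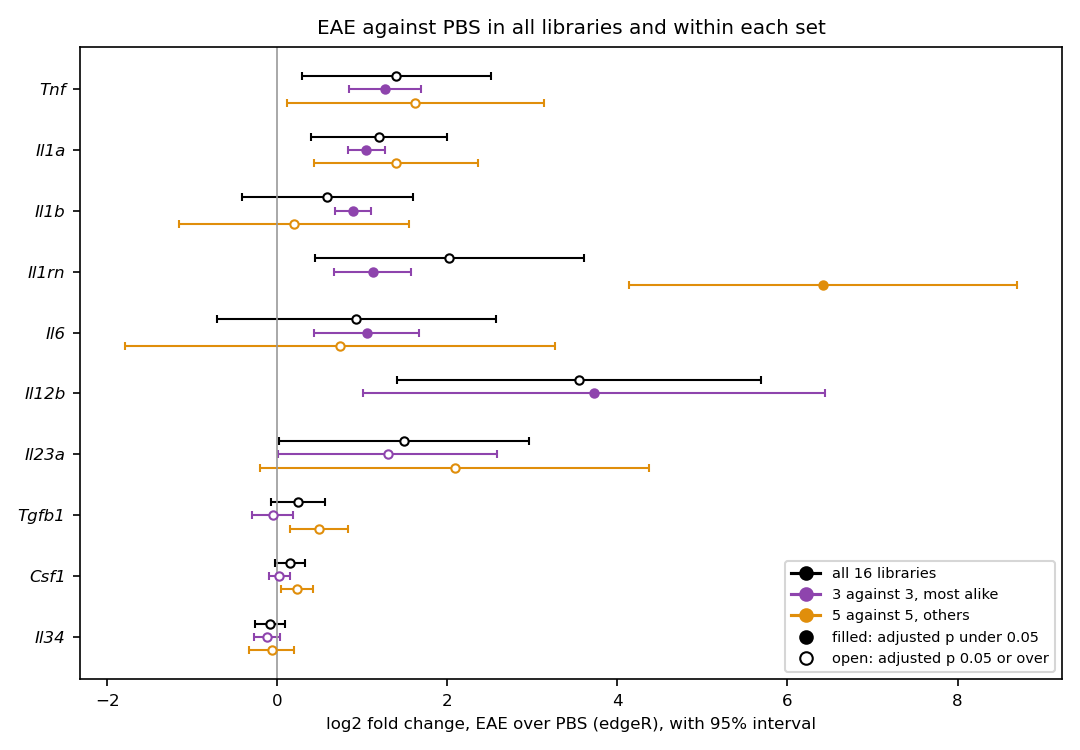
Log2 fold change, EAE over PBS, with its 95% interval from edgeR for each cytokine in all 16 libraries (black), the 6 most alike (purple) and the other 10 (orange), filled where the adjusted p is under 0.05. Intervals of Tnf, Il1a, Il1b and Il6 are narrower in purple, a set chosen for its small spread, than in the others, and the fitted values of Il12b (not tested in orange) and of Il1rn in orange rest on PBS counts of 0 to 2 and depend on edgeR's prior count.

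Genes around these cytokines were read from the same edgeR fit over all 16 libraries, in which 2.42% of all mRNAs were called and 17.4% had an unadjusted p under 0.05. Of 14 receptor genes, none was called, 1 was higher and 1 lower at an unadjusted p under 0.05, and their median log2FC was 0.07. The 3 smallest p-values were those of Tnfrsf1b, the second TNF receptor (log2FC 0.28, SE 0.08, adjusted p = 0.0812), Il12rb1, a receptor chain for p40 (log2FC −0.74, SE 0.26, adjusted p = 0.135), and Tgfbr2 (log2FC 0.15, SE 0.08, adjusted p = 0.290), in that edgeR test. Of 12 genes for processing and activation of these cytokines, none was called in edgeR, and 2 were higher and 2 lower at an unadjusted p under 0.05, with a median log2FC of −0.04. Casp1, the protease that matures IL-1β, had a log2FC of −0.55 (SE 0.20, adjusted p = 0.161 in edgeR), Thbs1, an activator of latent TGF-β, one of 0.75 (SE 0.30, adjusted p = 0.192), and Itgav, an integrin chain that activates it too, one of −0.17 (SE 0.07, adjusted p = 0.193). Of 21 other cytokines, 19 were tested, since Il17a and Ifng were under 16 counts, and none was called in edgeR. Tgfb2 and Tgfb3, the other TGF-β isoforms, had log2FC values of −0.19 (SE 0.07, adjusted p = 0.152 in edgeR) and −0.16 (SE 0.06, adjusted p = 0.198), and Il4 had 1.02 (SE 0.59, adjusted p = 0.392).

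The lists of response genes held 2 called genes, where 0.66% of all mRNAs were called higher and 7.92% were higher at an unadjusted p under 0.05. Among 17 TNF and IL-1 response genes none was called in edgeR, and 3 were higher at an unadjusted p under 0.05, namely the chemokines Ccl4 (log2FC 1.08, SE 0.33, adjusted p = 0.0812), Cxcl10 (log2FC 1.79, SE 0.55, adjusted p = 0.0883) and Ccl3 (log2FC 1.16, SE 0.37, adjusted p = 0.0993). Their list had a median log2FC of 0.16. Of 6 IL-6 and STAT3 response genes, Gfap, the intermediate filament of astrocytes, was called higher in EAE mice, at 144 ± 16.9 FPKM (SD, n = 8) against 98.1 ± 25.5 (log2FC 0.50, SE 0.12, adjusted p = 0.0312 in edgeR). Stat3 and Socs3 followed in this list, with log2FC values of 0.22 (SE 0.11, adjusted p = 0.321 in edgeR) and −0.18 (SE 0.25, adjusted p = 0.779), and the median of the list was 0.06. Of 7 TGF-β response genes, Tgfbi, a secreted matrix protein, was called higher at 4.64 ± 0.552 FPKM against 3.11 ± 0.652 (log2FC 0.52, SE 0.12, adjusted p = 0.0255 in edgeR), and the median of the list was 0.19. Tgif1, a TGF-β-induced repressor, had a log2FC of 0.33 (SE 0.16, adjusted p = 0.283 in edgeR).

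Several members varied together across the 16 libraries. Likeness was described by Pearson r of log2(CPM + 0.5) after each group's mean was subtracted, for the 8 members with at least 160 counts, with no test, since the points share library composition and the sets of libraries. Tnf was most like Il1a (r = 0.88) and Il6 (r = 0.82), Il1b was about as like Il1rn (r = 0.74) as Tnf (r = 0.73), Il1rn was most like Csf1 (r = 0.75), and Tgfb1 was most like Csf1 (r = 0.91) and then Il1a (r = 0.80). Il34 stood apart, with r between −0.13 and 0.28 to each of the others. After the mean of each set of libraries was subtracted as well, r was 0.78 between Tnf and Il1a, 0.66 between Tnf and Il6, 0.65 between Il1b and Il1rn, and 0.82 between Tgfb1 and Csf1. It was then 0.75 between Tgfb1 and Il1a, 0.54 between Il1b and Tnf, and 0.39 between Il1rn and Csf1. Between Il1rn and Il6 it went from 0.44 to −0.10. Part of the likeness thus goes with the library sets.

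**Figure D4:**
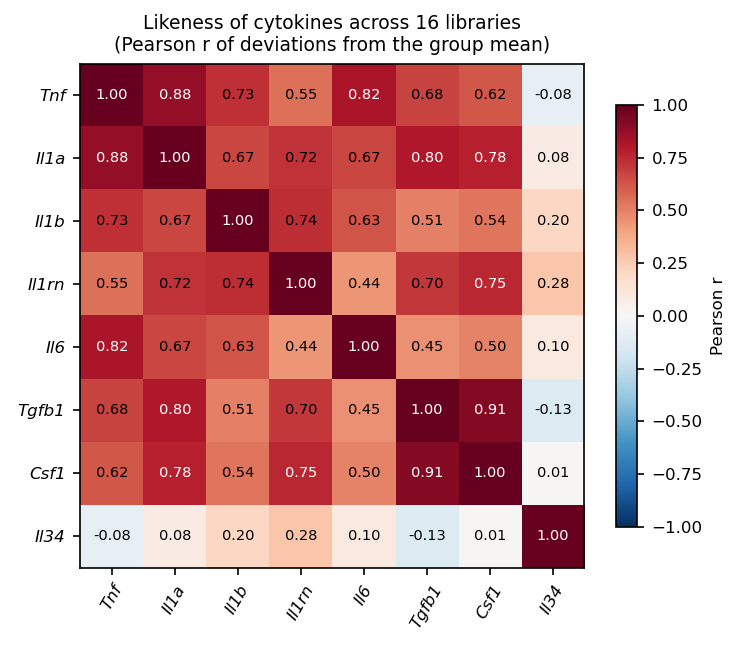
Pearson r between cytokines over the 16 libraries, of log2(CPM + 0.5) after subtraction of the group means, on a color scale from −1 (blue) to 1 (red) with r written in each cell. Tgfb1 and Csf1 have the highest r of any pair at 0.91, and the row of Il34 is near 0.

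Among the 15921 mRNAs with at least 160 counts, those among the 5 most like each member by the same r were as follows. Tnf was closest to Map1s (r = 0.96), Rapgef2 (0.94), Thbs1 (0.92), LOC108167925 (0.91) and Relb (0.91), the last an NF-κB subunit. Il1a was closest to Ksr2 (r = 0.94), Slco2a1 (0.92), Ackr1 (0.92), Larp1 (0.91) and Bbc3 (0.91). For Il1b they were Ccrl2 (r = 0.95), a chemokine receptor-like protein, then Mthfd1l, Azin2, Pcdhga3 and Hcls1 (0.92 each). Il1rn had lower values, with Polr2a at 0.91, Tiam1 and Ufd1l at 0.88, and Cacnb1 and Bahcc1 at 0.87. Near to Il6 were Serpina3i (0.90), and Tnfaip3, a feedback inhibitor of NF-κB, Grin1 and Apc2 (0.89). The genes nearest to Tgfb1 were Ttc28 (0.94), Sf1 (0.93), Hmcn1 (0.92), Faxc (0.92) and Csf1 (0.91), and near to Csf1 were Csnk1e (0.97), Zfp362 (0.96), Samsn1 and Nr1d1 (0.94 each). Il34 was closest to Tmem42 (0.92), D630023F18Rik (0.91), Pigu (0.90), Rabep2 (0.89) and Slitrk3 (0.89). Apart from Csf1 for Tgfb1, none of the genes named here was itself a member. After the means of the library sets were subtracted as well, 4 of the 5 nearest genes were shared for Tnf and Il1b, 3 for Csf1, 2 for Il1a and Tgfb1, 1 for Il6 and Il34 and 0 for Il1rn, so the neighbours of Il1rn, Il6 and Il34 in particular depend on the library sets.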

How the data were processed

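RNA-seq libraries of sorted brain microglia were compared between 8 EAE mice and 8 PBS-treated mice, grouped by the labels, with 1 library per mouse. Reads of 150 bp were, per the methods and the submitters' processing notes, aligned to GRCm38 with HISAT2 2.1.0 and counted with HTSeq 0.11.2, and the authors deposited raw counts and FPKM values for 21878 mRNAs. The FPKM values deposited by the authors were used for levels and for exact permutation tests. Counts were tested here with edgeR 4.0.16 (quasi-likelihood, TMM, total of at least 16 counts, group as the only term, R 4.3.3), with Benjamini-Hochberg adjustment over 17885 mRNAs. The model was tested on simulated data. FPKM differences were tested with two-sided exact permutation tests (numpy 2.4.6, pandas 2.3.3, Python 3.11.15). The depth of 24587443–34184576 counts per library limits members with few counts, and intervals cover counting error only. Members and gene lists were chosen with earlier results of these data known, and the study itself named Il23a, Il12b, Tnf and Il1a from these libraries. Genes named beside the members were those of each pathway list with an adjusted p under 0.05, the 3 with the smallest unadjusted p in each list, and the 5 mRNAs most like each member with at least 160 counts. A few genes that this rule names are not reported here. Lists were described by counts and medians only. Alternatives were size factors, library totals, 3 filters, the edgeR exact test, robust estimation, limma-voom (limma 3.58.1), DESeq2 1.42.0, a replicate block, a term for the set of libraries, fits within each set and leaving out each library. The sets of libraries were chosen after seeing the data, and so were the term for the set and the fits within each set, which rest on them. The same holds for the interaction of set and group, likeness within sets and the overlap of groups within sets. It also holds for the ratio within sets and for leaving out libraries for Il1rn within a set. Upstream sequences and positions came from RefSeq (GRCm38.p6).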

Additional observations from a re-analysis of the deposited data

Results flagged for a closer look

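Among the 20 sets of 8 FPKM values, 10 cytokines in 2 groups, 1 held a value far from the others. Il12b was 0.0122 FPKM in PBS 5 and 0 in the other 7 PBS libraries. This value is a single count, under the limit of 3 counts that a count of 0 allows. Chance flags about 1 in 20 sets of normally distributed values. That rate does not apply here, since any single value above 0 beside 7 values of 0 is flagged.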

How the results depend on the processing

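No member passed an adjusted p of 0.05 in edgeR's quasi-likelihood test with DESeq2 size factors, library totals, any of the 3 filters or robust estimation, nor in limma-voom, with a replicate block or in the DESeq2 Wald test, which gave no adjusted p for Il12b and Il23a. The filters filterByExpr and a total of at least 160 counts removed Il12b and Il23a, which were thus not tested there. The edgeR exact test called 2 members, Il12b (adjusted p = 0.0282) and Il1a (adjusted p = 0.0469), the term for the set of libraries 3, the fit within the 6 libraries most alike 6 and that within the other 10 libraries 1. Leaving out 1 library gave 0 to 2 members. At an unadjusted p under 0.05 the number was 3 with filterByExpr and with a total of at least 160 counts. These were Tnf, Il1a and Il1rn, and the lower number there comes from the removal of Il12b and Il23a. It was 3 in limma-voom (Il1a, Il1rn and Il12b), and 3 to 7 without 1 library. Over all mRNAs, the numbers higher and lower in EAE mice were 226 and 103 with library totals, 260 and 485 in the edgeR exact test, 242 and 526 with the term for the set of libraries, 1896 and 2251 within the 6 libraries most alike, 8 and 5 within the other 10, and 297 and 602 in DESeq2. Without 1 library they ranged from 39 (without EAE 2) to 502 (without EAE 4) higher and from 104 (without PBS 2) to 815 (without EAE 4) lower. Apart from the fits on fewer libraries, the cause of these moves in the numbers of mRNAs was not tested. The log2FC of Tgfb1 changed sign to −0.056 within the 6 libraries most alike, and the FPKM difference of Il34 to 0.163 without EAE 5 (exact permutation p = 0.826), the upper end of a range from −0.672. The log2 ratio of Il34 to Csf1 differed by −0.33 to −0.18 without 1 library, and its exact p was under 0.05 only without EAE 4. Of 292 log2FC values of members under these alternatives, 274 kept their direction and their side of the threshold, 17 newly passed it and 1, that of Tgfb1, changed sign.

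Replicate numbers are shared by the groups, but deviations of same-numbered libraries correlated from −0.21 to 0.55, and 3 of 8 EAE libraries were most like the PBS library of their number, so the numbers were not taken as pairs. With a replicate block, 0 members were called (Il1rn had the smallest adjusted p, 0.0929 in edgeR), and 150 mRNAs were higher and 367 lower. Depth limits Il12b and Il23a, which had at most 17 counts in any library, and Il1rn and Il6 in the libraries at or under 3 counts.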
